A study of Mus musculus with 6 samples.

Results

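Caspases are cysteine proteases, and this account covers 7 mouse caspase genes (Casp12, Casp1, Casp4, Casp2, Casp8, Casp9 and Casp6) together with Apaf1, the scaffold on which caspase-9 is activated. They were found by name: every non-control probe whose accession maps to one of the 8 symbols was taken, which gave 10 of the 41174 non-control probes on the array, 3 of them for Apaf1 and 1 for each caspase. The 8 genes are part of 18217 symbols the array names.

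The arrays compared primary megakaryocytes, the platelet-forming cells, cultured from fetal livers of C57BL/6 mouse embryos at E13.5. The p45-/- group (n = 3) came from embryos without p45, the product of Nfe2 and the larger partner in the NF-E2 heterodimer. The WT group (n = 3) was wild type, and the series' design speaks of 3 independent experiments. No treatment is named in the labels, and the extraction protocol names whole embryos as the RNA source, against the source field. There was 1 single-colour array per sample.

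Caspases are made as inactive precursors. Initiators (caspase-2, caspase-8, caspase-9) are switched on in large complexes and then cut executioners such as caspase-6, which dismantle the cell. A separate branch, caspase-1 and the caspase that mouse Casp4 encodes (caspase-11), matures interleukin-1 family cytokines or opens membrane pores, and caspase-12, a relative of that branch, has been placed at the endoplasmic reticulum. NF-E2 is needed for megakaryocytes to mature and release platelets, and Casp12 has been reported as one of its targets in these cells.

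All values are log2 levels relative to the array's 75th percentile unless said otherwise, and differences are p45-/- minus WT. Array p45-/- 1 stood apart from the rest: its correlation with the other arrays across probes was 0.786 to 0.887, against 0.939 to 0.983 among the others, and its 75th percentile was 135, against 339 to 589 elsewhere. All 15 megakaryocyte markers checked were well above background on all 6 arrays. Of these 13 were lower in p45-/- on average, with a median of -0.43. Among all probes detected on all 6 arrays 60.9% were lower, with a median of -0.12. With quantile normalization the markers' median was -0.105, against -0.096 for all probes tested. Of the 15 markers 1, Selp (P-selectin), passed with the replicate number as a block (-2.83, limma adjusted p = 0.039, and 0.457 without the block). Nfe2 itself had levels of 4.87, 6.43 and 6.34 in p45-/- and 5.24, 6.57 and 6.33 in WT (difference -0.17, SE 0.56, limma adjusted p = 0.922), from a probe whose place relative to the deletion is not known here, so it does not check the genotype labels. Limma called 0 of 23966 probes tested (0%) at an adjusted p under 0.05, with 856 lower and 611 higher at an unadjusted p under 0.05.

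The promoters of Casp12 and Casp4 are shown because these are the members whose probes had an unadjusted p under 0.05, and because Casp1, Casp4 and Casp12 are neighbours on chromosome 9. Each line gives the 250 bases before a RefSeq transcript start on the plus strand of GRCm38.p6, 5′ to 3′. Capitals mark the GATA core GATAA and matches to the NF-kB consensus, which was added to the search after the sequences were seen.
Casp12 (chr9:5345226-5345475): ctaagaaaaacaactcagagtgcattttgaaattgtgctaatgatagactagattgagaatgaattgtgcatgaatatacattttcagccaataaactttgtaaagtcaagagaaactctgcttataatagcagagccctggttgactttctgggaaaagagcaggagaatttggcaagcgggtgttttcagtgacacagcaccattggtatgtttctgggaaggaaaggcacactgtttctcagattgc
Casp4 (chr9:5308599-5308848): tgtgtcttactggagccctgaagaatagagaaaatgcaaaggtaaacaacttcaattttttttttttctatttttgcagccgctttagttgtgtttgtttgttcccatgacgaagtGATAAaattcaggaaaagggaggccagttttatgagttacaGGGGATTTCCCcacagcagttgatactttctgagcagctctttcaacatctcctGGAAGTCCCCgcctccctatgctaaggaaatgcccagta
The NF-E2 core TGAGTCA, the longer full NF-E2 site that contains it, and the Maf core TGCTGA that overlaps the full site were searched on both strands in these windows of all 8 members. None of the 3 was found in any of them. Among all 32851 windows of this length, 4.46% hold the core, 0.134% the full site and 16.1% the Maf core. GATAA was found for Casp4, Casp2, Casp8 and Casp9 (22.6% of all windows). The NF-kB consensus was found for Casp4 (7.25% of all windows), as overlapping matches from -93 to -83 and another match from -39 to -30, counted back from the start. A missing match says only that these letters are not in the window.

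Casp12 had the largest difference in group means among the members, and its size depended on the array numbered 1. The single probe exceeded background on each of the 6 arrays. Before scaling, p45-/- arrays 1, 2 and 3 had processed signals of 17.6, 16.2 and 20.1, and the WT arrays 36.5, 116 and 86.5. On that scale every p45-/- array was below every WT array, but it is not corrected for the brightness of the arrays. Their 75th percentiles were 135, 407 and 589 in p45-/- and 339, 584 and 575 in WT. How many of all probes separate on that scale was not counted. The p45-/- signals were 2.04, 1.75 and 2.02 times the lowest signal called well above background on the same array, and the WT signals 3.04, 10.1 and 8.02 times.

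**Figure D1:**
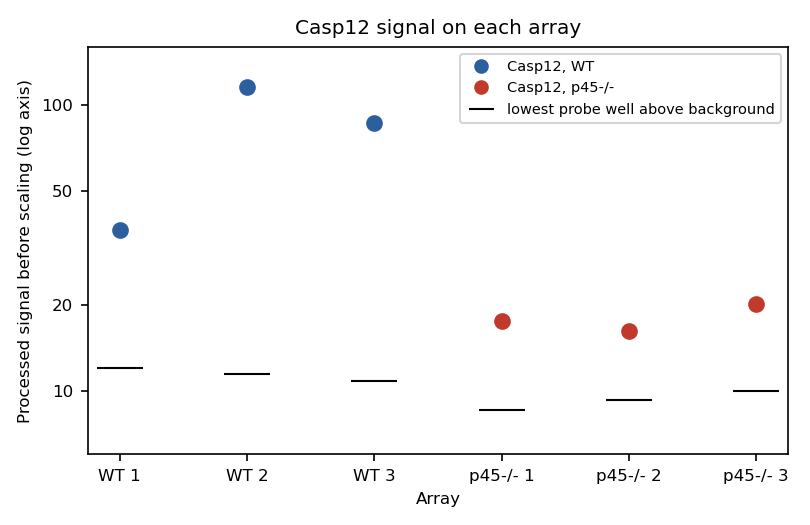
Processed signal of the Casp12 probe on each array before scaling (log axis), with a bar at the lowest probe signal called well above background on that array. The p45-/- points lie between 16.2 and 20.1, close to the bars, and the WT points between 36.5 and 116.

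After scaling, the Casp12 level was -2.95, -4.65 and -4.87 in p45-/- and -3.22, -2.34 and -2.73 in WT. The groups overlapped, because p45-/- array 1 moved above WT array 1 while p45-/- arrays 2 and 3 stayed below all WT arrays. After scaling, the lowest level called well above background was -3.98 on p45-/- array 1, and -5.46 and -5.89 on p45-/- arrays 2 and 3. Casp12 levels as low as those of arrays 2 and 3 would thus not have been called on array 1. The group means were -4.16 ± 1.05 (SD, n = 3) and -2.76 ± 0.44 (SD, n = 3), a difference of -1.40 (SE 0.57, 95% interval -2.74 to -0.048), which is 2.63-fold lower. It did not pass over all probes (limma p = 0.0442, adjusted p = 0.709), and an exact two-sided permutation test gave p = 0.2, where 3 against 3 cannot go below 0.1. Of all probes tested, 1.54% had a more negative difference. Between arrays of the same number Casp12 differed by 0.27, -2.32 and -2.14. Without the arrays numbered 1 the difference was -2.23 (adjusted p = 0.069, 0.0876% of all probes called), 4.69-fold. With normexp background correction, whose offset of 50 exceeds the p45-/- signals, it shrank to -0.11.

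The genes whose levels followed Casp12 most closely over the 6 arrays, out of 12949 compared, were Ly6g6c (Pearson r = 0.986), Sema4b (0.98), Septin1 (0.974), Ralgps1 (0.971) and Hjv (0.969). These correlations are a description over 6 arrays that share the same scaling and the same outlying array. In each of the 5 genes p45-/- array 1 was above WT array 1, as for Casp12, and p45-/- arrays 2 and 3 were the lowest arrays. Ly6g6c, for example, had levels of -2.91, -3.74 and -4.10 in p45-/- and -3.09, -2.30 and -2.64 in WT. Hjv exceeded background on 1 p45-/- array of 3, so its lowest values are background values and no size is given for it.

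**Figure D2:**
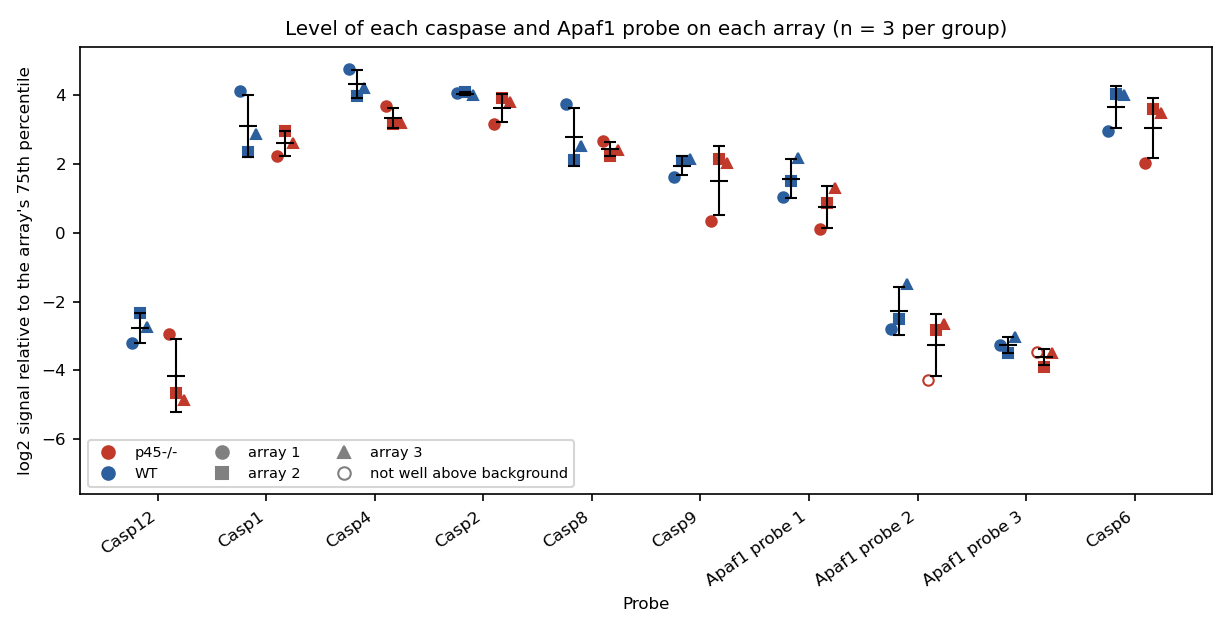
Level of each of the 10 probes on each array, as log2 signal relative to the array's 75th percentile, with group means and SD as black bars (n = 3); open symbols were not well above background. WT and p45-/- points are separate for Casp4 and Casp2 and overlap for the other probes.

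Casp4 was the member with the most even difference across arrays. It encodes caspase-11, the sensor of intracellular lipopolysaccharide. Its level was 3.68, 3.15 and 3.20 in p45-/- and 4.77, 3.99 and 4.22 in WT, so that the groups did not overlap. The means were 3.35 ± 0.29 (SD, n = 3) and 4.33 ± 0.40 (SD, n = 3), a difference of -0.98 (SE 0.33, 95% interval -1.77 to -0.19), or 1.97-fold lower (limma p = 0.0223, adjusted p = 0.709, exact permutation p = 0.1). Arrays of the same number differed by -1.09, -0.83 and -1.02. Without the arrays numbered 1 the difference was -0.92.

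Casp1, which activates interleukin-1 beta and interleukin-18, had levels of 2.22, 2.96 and 2.62 in p45-/- and 4.12, 2.36 and 2.86 in WT. WT array 1 was the highest and the groups overlapped. The difference of -0.51 (SE 0.50, adjusted p = 0.744) consisted of -1.90, 0.60 and -0.24 between arrays of the same number. Without the arrays numbered 1 it was 0.18, so its direction turned.

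The array highest for Casp1, Casp4 and Casp8 was also the highest in markers of macrophages and neutrophils. The summed linear scaled signal of the 14 macrophage and monocyte markers tested was 1389 on WT array 1, against 494 and 652 on the other WT arrays and 565 to 730 in p45-/-. That of the 11 neutrophil markers was 1284 on WT array 1, 1061 and 708 on the others, and 540 to 1046 in p45-/-. All 11 neutrophil markers (median -0.86) and 8 of the 14 macrophage markers (median -0.037) were lower on the mean of p45-/- arrays. Of the neutrophil markers 5 were lower without overlap (8.95% of all probes), and 0 of either list passed over all probes. The macrophage marker Cd163 stayed below the detection call on all 6 arrays. Markers of other cell types shifted as well. Of 13 erythroid markers 11 were higher in p45-/- (median 1.93), 8 of them without overlap (4.47% of all probes). With the replicate block 2, Trim10 and Ermap, passed (limma adjusted p = 0.039 and 0.0483). Ermap and Epb42, both among the 8, were well above background on 2 WT arrays of 3. They thus entered the test through p45-/- alone, where they were higher, so their call and separation count as no support. The summed linear signal of the 13 erythroid markers was 1008 on p45-/- array 1 and 122 to 378 on the other arrays. Casp2, Casp9, Casp6 and the first and second Apaf1 probes were lowest on p45-/- array 1. Such a sum is weighted to the brightest marker, Hba-a1, whose groups overlapped. Its mean log2 level in p45-/- was 7.80, against 5.74 for the next, Alas2. All 10 hepatoblast markers tested were higher on the mean of p45-/- arrays (median 0.94), 2 of them without overlap (4.47% of all probes). Of these markers 0 passed with or without the block. By replicate number their medians were -0.13, 1.30 and 1.87. Of 8 mast cell and basophil markers 5 were lower and 3 higher (median -0.86). Among them Ms4a2, lower, entered the test through WT alone, and Tpsb2, higher, through p45-/- alone. Of 10 stromal markers 9 were higher (median 0.52), as were 5 of 8 endothelial markers (median 0.25). By replicate number the stromal medians were -0.80, 1.07 and 1.39, and with median scaling the list's median was 0.0098. The endothelial medians by number were 0.090, 0.40 and 0.14, and with quantile normalization that list's median was -0.049. Lyve1, an endothelial marker that was lower, entered the test through WT alone. The part of any of these cells, or of the megakaryocyte marker differences, in the caspase levels was not tested. In such bulk samples fewer cells of a type and less RNA per cell cannot be told apart.

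Among the initiators, Casp2 encodes the caspase activated by the PIDD1 and CRADD complex. Its level was 3.17, 3.91 and 3.81 in p45-/- and 4.06, 4.09 and 3.99 in WT. The WT arrays lay within a narrow band above all p45-/- arrays. The difference was -0.42 (SE 0.31, adjusted p = 0.709), with -0.89 between the arrays numbered 1 and -0.18 between those numbered 2 and those numbered 3. Of the 10 member probes, those of Casp4 and Casp2 did not overlap between groups in the lower direction, and among all probes tested that share was 8.95%.

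Casp8, the caspase recruited by death receptors, had levels of 2.66, 2.24 and 2.42 in p45-/- and 3.74, 2.12 and 2.51 in WT. Apart from WT array 1 the 5 arrays lay within the range 2.12 to 2.66. The difference was -0.35 (SE 0.46, adjusted p = 0.802), and without the arrays numbered 1 it was 0.018.

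Casp9, the initiator that Apaf1 activates, had levels of 0.35, 2.15 and 2.04 in p45-/- and 1.62, 2.09 and 2.15 in WT. Here p45-/- array 1 was the low one, and WT array 1 the next. The difference was -0.44 (SE 0.53, adjusted p = 0.784), and -0.026 without the arrays numbered 1. Without p45-/- array 1 alone it was 0.14.

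Apaf1 was read by 3 probes. The brightest, well above background on all arrays, had levels of 0.11, 0.86 and 1.31 in p45-/- and 1.03, 1.51 and 2.16 in WT. The groups overlapped, although each p45-/- array was below the WT array of its number, by 0.93, 0.65 and 0.86. The difference was -0.81 (SE 0.45, 95% interval -1.87 to 0.25, adjusted p = 0.709), or 1.75-fold lower, and -0.75 without the arrays numbered 1.

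The other Apaf1 probes were dim, and passed the filter through WT alone because p45-/- array 1 was not well above background for either. The second probe had levels of -4.29, -2.84 and -2.64 in p45-/- and -2.81, -2.51 and -1.49 in WT, a difference of -0.99 (SE 0.56, adjusted p = 0.709). The remaining probe had levels of -3.47, -3.89 and -3.51 in p45-/- and -3.27, -3.49 and -3.03 in WT, a difference of -0.36 (SE 0.29, adjusted p = 0.719). Over the 6 arrays the first and second probes had r = 0.977, with the undetected array included, and the remaining probe had r = 0.54 and 0.449 with them. With normexp background correction the dim probes gave 0.052 and 0.44, turning their direction, while the brightest stayed at -0.74.

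Casp6, an executioner that cuts nuclear lamins, had levels of 2.03, 3.60 and 3.49 in p45-/- and 2.95, 4.02 and 4.01 in WT. In both groups array 1 was the lowest, and the groups overlapped through WT array 1. The difference was -0.62 (SE 0.54, adjusted p = 0.726), with -0.92, -0.42 and -0.52 between arrays of the same number. Without p45-/- array 1 it was -0.12, and without the arrays numbered 1 of both groups -0.47. Casp6 varied over the 6 arrays much as Casp9 did (r = 0.946).

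**Figure D3:**
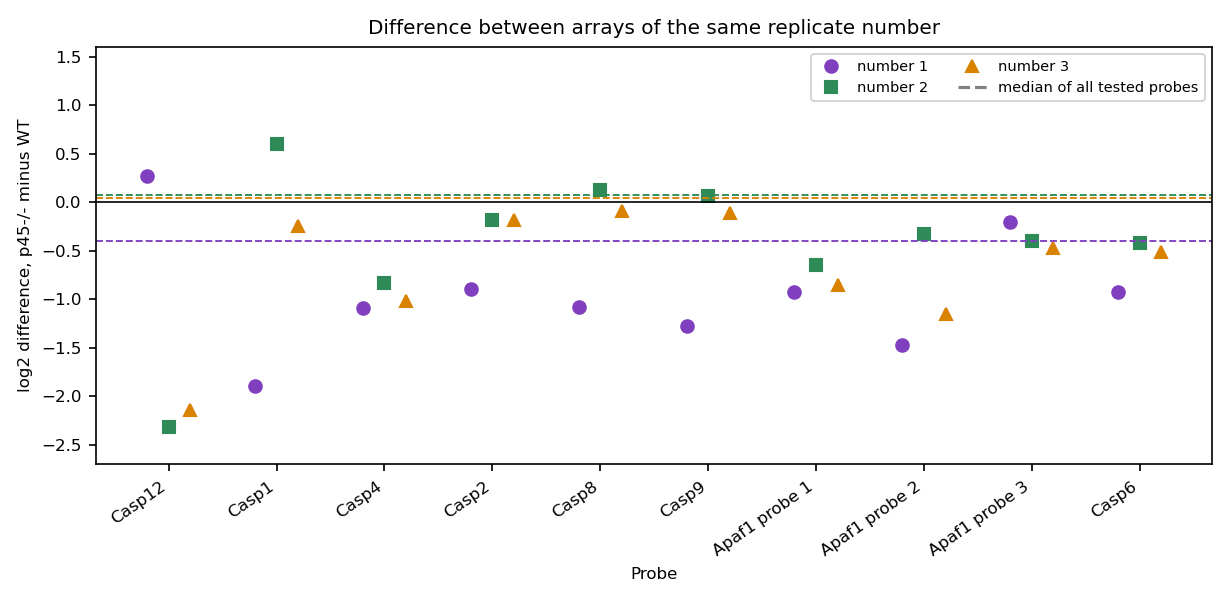
Log2 difference, p45-/- minus WT, between arrays of the same replicate number for each of the 10 probes; dashed lines are the medians of all tested probes, at -0.40, 0.075 and 0.043 for numbers 1, 2 and 3. Casp12 is above 0 for number 1 and near -2 for the others, and Casp4 lies between -1.09 and -0.83 for all 3.

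Read together, the 8 probes above background on all 6 arrays, 1 for each gene, had a negative difference in group means, with a median of -0.57. Of the 20544 probes detected that widely 60.9% were negative, with a median of -0.12. The dim Apaf1 probes, which passed through WT alone, were negative too, where 56.9% of all probes tested were, and were positive with normexp. With Apaf1 counted once, the genes negative between the arrays numbered 1, 2 and 3 were 7, 5 and 8 of 8. The shares over all probes tested were 65.3%, 44.5% and 45.1%. Of the 8 well-detected probes 4 (Casp4, Casp2, Casp6 and the brightest of Apaf1) were negative in all 3, which held for 27.3% of the probes detected that widely. The dim Apaf1 probes were as well (25.7% of all probes tested). Median scaling shifts every probe by the same amount, and moved the median of all probes to -0.60. It moved that of the 10 member probes, the dim Apaf1 probes included, to -1.08. Of the 10 probes 2 (Casp12 and Casp4) had an unadjusted p under 0.05, against 6.12% of all probes, and 0 passed when adjusted. With the replicate number as a block 0 of the 10 passed as well (adjusted p 0.133 to 0.63), while the count over all probes went from 0 to 73 (0.305%).

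The genes around the caspases were taken as 7 lists, with 82 genes tested. None passed over all probes (smallest limma adjusted p = 0.655), with or without the replicate block. At an unadjusted p under 0.05 there were 4 lower and 0 higher genes, where 3.57% and 2.55% of all probes were. The groups did not overlap for 15 lower genes and 0 higher genes, against 8.95% and 4.47% of all probes. The medians below stand beside the -0.086 of all probes tested (-0.096 with quantile normalization).

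Executioner caspases and caspase substrates had 12 of 14 genes below WT on average, and a median of -0.39 (-0.25 with quantile normalization). Gsdme, a gasdermin that forms membrane pores once a caspase has cut it, differed by -0.98 (SE 0.30, adjusted p = 0.655). The p45-/- arrays averaged 1.56 ± 0.07 (SD, n = 3), and the WT arrays averaged 2.54 ± 0.36 (SD, n = 3). Its groups were separate.

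Caspase inhibitors had 10 of 11 genes lower, with a median of -0.59 (-0.50 with quantile normalization). Birc3, a ubiquitin ligase that restrains caspase-8 activation, differed by -0.77 (SE 0.36, adjusted p = 0.709). Naip5, a relative of the inhibitors that senses flagellin, differed by -0.77 (SE 0.37, adjusted p = 0.709). In 4 of the 11 the groups were separate. By replicate number the list's medians were -1.32, -0.28 and -0.21.

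Death receptors and initiator adaptors had 9 of 11 genes lower, with a median of -0.32 (-0.14 with quantile normalization). By replicate number the medians were -0.75, 0.22 and 0.026. Fas, a death receptor, differed by -0.93 (SE 0.45, adjusted p = 0.709) and Tnfrsf1a, a tumour necrosis factor receptor, by -0.71 (SE 0.38, adjusted p = 0.709). Both were separate between groups. The mitochondrial activators of the apoptosome had 10 of 11 genes lower. Their median of -0.037 was nearer to 0 than that of all probes, and was 0.20 with quantile normalization. In that list Endog, a mitochondrial nuclease, differed by -0.28 (SE 0.30) and Hspd1, a chaperone, by 0.20 (SE 0.28).

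Inflammasome and pyroptosis genes were split, 6 lower and 6 higher, with a median of 0.0062 that was -0.12 with quantile normalization. Among them Nlrp3, higher, passed the filter through p45-/- alone, and Nlrp1a, lower, through WT alone. Nlrp1a (-0.082) was well above background on 1 p45-/- array of 3. It is a middle gene of the list, so the median rests partly on background values. Txnip, a thioredoxin-binding protein linked to NLRP3, differed by -1.14 (SE 0.38, adjusted p = 0.709). Il1b, whose product caspase-1 matures, differed by -1.15 (SE 0.43, adjusted p = 0.709). Both had separate groups and an unadjusted p under 0.05.

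Endoplasmic reticulum stress and calpain genes had 16 of 17 lower, with a median of -0.43 (-0.23 with quantile normalization). By replicate number the medians were -0.58, -0.15 and -0.20. Capns1, the small calpain subunit, differed by -0.74 (SE 0.33, adjusted p = 0.709), with separate groups. Capn2, the large subunit of m-calpain, differed by -0.88 (SE 0.43, adjusted p = 0.709). The 7 p53 and E2F regulators of Apaf1 had 3 genes lower and 4 higher, with a median of 0.022, or 0.215 with quantile normalization. There E2f1 differed by -0.43 (SE 0.28) and Trp73, a relative of p53, by 0.88 (SE 0.77).

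**Figure D4:**
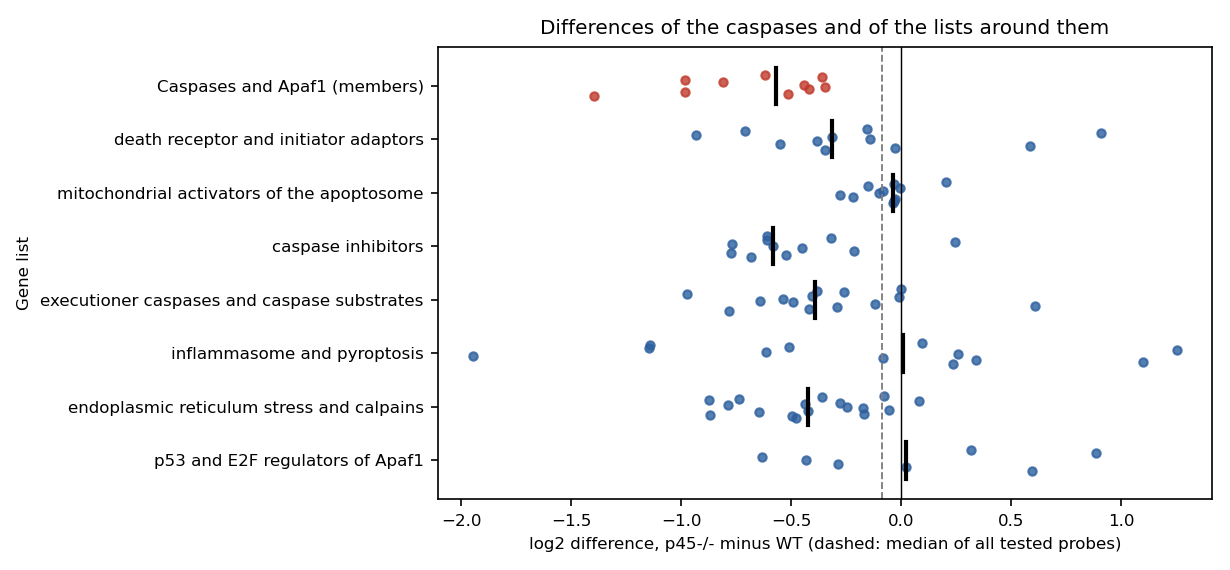
Log2 difference, p45-/- minus WT, of the 10 member probes (red) and of the tested genes of 7 lists (blue), with black bars at each median and a dashed line at the median of all tested probes, -0.086. The members' median is -0.57, with or without the dim Apaf1 probes that passed the filter through WT alone, and the lists' medians run from -0.59 to 0.022.

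The alternative settings left Casp12 and Casp4 negative in each of 20 settings. Not all of these could turn a direction. The blocks on their own, the other filters and 1 probe per gene gave the same estimates, and the value table holds the same intensities. For Casp12 the range was -2.23 to -0.11 and for Casp4 -1.49 to -0.67. Each passed in 2 of the 20 settings. With array weights Casp12 was at -2.03 (limma adjusted p = 0.00897) and Casp4 at -1.01 (limma adjusted p = 0.0253), and 5.41% of all probes were called. The weight was 0.0945 for p45-/- array 1. It was 9.72 for WT array 3, against 0.338 and 1.25 for WT arrays 1 and 2. The weighted WT mean thus rested mostly on WT array 3. The other setting was the replicate block with median scaling, which called 8.47% of all probes.

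**Figure D5:**
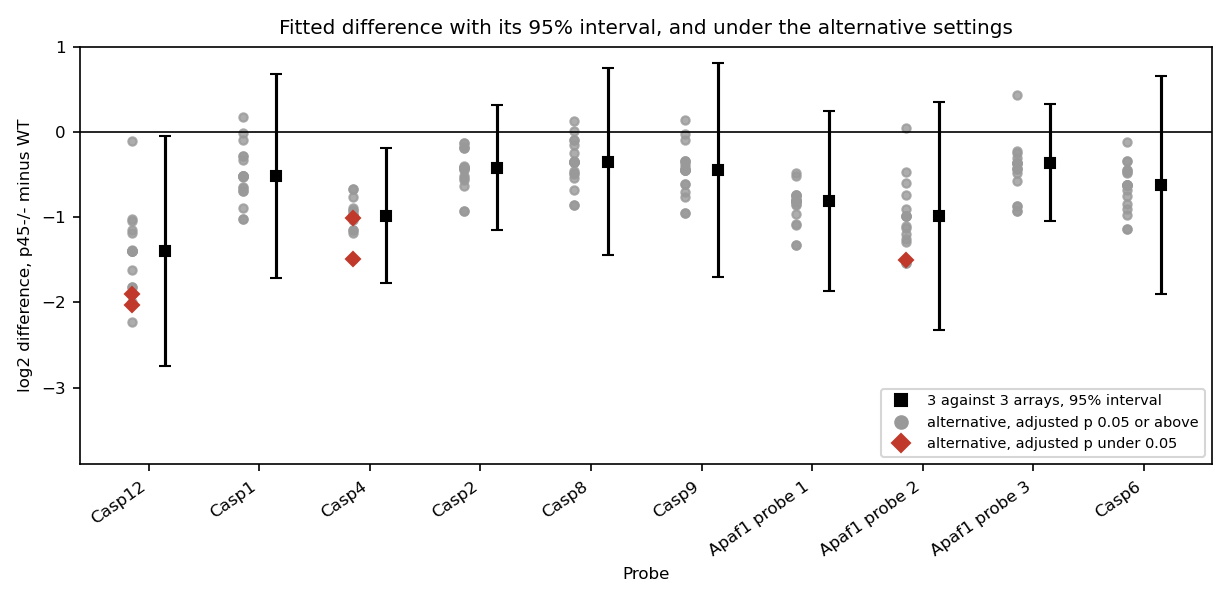
Fitted log2 difference of each probe with its 95% interval (black, n = 3 against 3), beside its values under the alternative settings (grey) and those with an adjusted p under 0.05 (red diamonds). The interval excludes 0 for Casp12 and Casp4, and the settings of Casp1, Casp8, Casp9 and the dim Apaf1 probes lie on both sides of 0.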

How the data were processed

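Per the file headers, the scans were read by Agilent Feature Extraction 10.7.3.1. The submitters' processing notes give 10.1. The file headers list statistics of background subtraction and of detrending surfaces for each array, and the deposited processed intensity is linear and differs in scale between arrays. The deposited value table held the same intensities, linear and not centred by gene, within 0.497%, with column medians of 22.6 to 46.3; with 1 channel it has no direction to settle.

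Here 32 to 80 flagged spots per array were set to missing and no spot was saturated. Spots of a probe were averaged on the log2 scale and each array's 75th percentile was subtracted. A probe was tested if detected on every array of 1 group or both (23966 of 41174; all 10 member probes passed). Probe accessions, without versions, were named through a RefSeq table of GRCm38.p6 (26690 probes), and promoters from RefSeq sequences of the same build, found for all 8 members. Groups were compared with two-sided tests in limma 3.58.1 (R 4.3.3), and p-values received Benjamini-Hochberg adjustment over all probes and a threshold of 0.05. The labels do not say whether samples came from separate animals, beyond the design's 3 independent experiments, and the number of arrays limits precision. List genes used the tested probe with the highest mean.

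Deviations of same-numbered arrays from their group means correlated at 0.638, 0.573 and 0.296, all above the limit of 0.1 set for pairing. The data, not the labels, are thus the ground for treating equal numbers as pairs. Differently numbered arrays were not correlated in this way. Slide or brightness shared by equal numbers was not told apart from pairing. Replicate 3 of both groups lay on slide 1, the others on slide 2, each slide scanned on its own.

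The members, lists and tests were chosen with earlier results of these data known. The rule named all member probes, the genes of each list with the smallest p (2 where none was called) and the 5 genes most like Casp12. Some genes of the lists are counted but not reported here by name. The alternatives were the replicate number or slide as a block, slide 2 alone, normexp (on median in place of mean spot signal), quantile and median scaling, the value table, other filters, array weights, 1 probe per gene, and leaving out arrays. Scaling combined with the block was added after seeing the data. The test was checked on simulated arrays.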

Additional observations from a re-analysis of the deposited data

How the results depend on the processing

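Of the members' differences under the alternatives, 185 kept their direction and their side of the threshold, 6 changed direction and 5 passed. The 185 include settings that leave the estimate as it is (the blocks on their own, the other filters and 1 probe per gene), where no direction could change. The count of probes called, 0, became 73 under the replicate block, 13 with median scaling, 1296 with array weights, 21 without the arrays numbered 1, and, in settings chosen after seeing the data, 2031 with both the block and median scaling but 0 with both the block and quantile normalization (Casp12 adjusted p = 0.382, Casp4 0.397). Leaving out 1 array at a time gave 0 to 1. Casp12 passed with array weights (-2.03) and with the block and median scaling (-1.91, adjusted p = 0.00436), where Casp4 (-1.49) and the second Apaf1 probe (-1.50) also passed. The block on its own changed no call of a member or of the 7 pathway lists. It called 1 megakaryocyte and 2 erythroid markers, of which Ermap had entered the test through p45-/- alone. Directions turned for Casp1 (0.18) and Casp8 (0.018) without the arrays numbered 1, and for the dim Apaf1 probes with normexp (0.052 and 0.44). Leaving out 1 array at a time, Casp8 ran from -0.68 to 0.13 (positive without WT array 1) and Casp9 from -0.76 to 0.14 (positive without p45-/- array 1). In the lists, 1 inflammasome gene passed with array weights. With the block and median scaling 3 inflammasome genes passed, 1 gene of the death receptor list and 1 executioner or substrate gene. The cause of these changes was not tested. Signals close to background limit Casp12 and the dim Apaf1 probes most.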
